A study of Mus musculus with 12 samples.

Results

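Genes of the epithelial sodium channel and its aldosterone control were followed through colonic epithelium with and without intestinal Ehf. They are the channel subunit genes Scnn1a, Scnn1b and Scnn1g, the channel-activating protease gene Prss8, the kinase gene Sgk1, the ubiquitin ligase gene Nedd4l, the mineralocorticoid receptor gene Nr3c2, the steroid enzyme gene Hsd11b2 and the sodium pump subunit gene Atp1b1. The 9 genes were taken by symbol from the 55304 gene symbols of the count files, for their known roles in this pathway. All 9 were among the 15743 genes with enough reads to be tested. RNA of colonic epithelium was sequenced from 12 C57BL/6 mice aged 6 weeks, 4 mice in each of 3 groups. Control OIL mice had source names that begin with EVCER, were labelled wild-type and received sunflower oil. Ehf IKO mice had the same source prefix, were labelled as intestinal knockouts of Ehf and received tamoxifen. Control TMX mice had the source VilCreER, were labelled wild-type and received tamoxifen, and the series text names them Villin CreERT2-TMX, a line whose tamoxifen-activated Cre recombinase is driven by the Villin promoter of intestinal epithelium. Ehf IKO thus differed from Control OIL also in tamoxifen and from Control TMX also in the line, so each comparison is given with both controls. Mice were numbered separately in the labels, which do not say which segment of the colon was taken.

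The epithelial sodium channel is built from an alpha, a beta and a gamma subunit, encoded by Scnn1a, Scnn1b and Scnn1g, and lets sodium from the lumen into the cell across the apical membrane. The sodium pump on the basolateral side then moves it on, which is how the distal colon recovers salt and water. Aldosterone acts through the mineralocorticoid receptor and raises channel activity, in part through Sgk1, which phosphorylates Nedd4l and so keeps this ligase from marking the channel for removal. In the colon of rodents the beta and gamma subunit transcripts are known as the steroid-responsive ones, while the alpha subunit transcript is present without the hormone. The product of Ehf belongs to the ETS family of transcription factors, which bind DNA at a GGAA core.

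Libraries held 7421411 to 10344161 counted reads, and mitochondrial genes took 10.7% to 26.3% of them. Levels are given in CPM, the reads of a gene scaled by the size and TMM factor of its library, in the order of replicates 1 to 4 within a group, and as mean ± SD with n = 4 mice. Replicates 1 and 2 of every group were female and replicates 3 and 4 male by Xist and Y-linked genes. Ehf itself was read at 428 ± 46.4 CPM in Control OIL, against 345 ± 21.0 in Control TMX and 341 ± 30.1 in Ehf IKO. These are sums over all its exons and the labels name no deleted exon, so they do not measure the deletion. Ehf IKO replicate 2 stood apart, with 10.4% of its reads in 11 genes that held at most 0.114% in any other library. The 7 epithelial markers, among them Epcam and Krt8, were read in all 12 libraries, and their summed level was 5575 to 7126 CPM in Control OIL, against 6719 to 7084 in Control TMX and 7114 to 8573 in Ehf IKO. In such bulk samples, fewer cells of a type and less RNA per cell cannot be told apart.

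Transcripts of the beta subunit fell in the knockout, and edgeR called none of the other 8 genes in a comparison of Ehf IKO, while DESeq2 also called Scnn1a against Control OIL. Scnn1b was the 1 of the 9 genes called at an adjusted p under 0.05 (edgeR quasi-likelihood test, Benjamini-Hochberg over all genes) against Control OIL, where 1.68% of all tested genes were called, and 0.762% were called as lower. It was also the 1 called against Control TMX, where 0.8% of all genes were called (0.47% as lower), and against the mean of both controls, where 1.72% were (0.858% as lower). The median log2 fold change of the 9 genes was 0.21 against Control OIL, beside -0.01 over all tested genes, with 7 higher and 2 lower, where 48.7% of all genes were higher. Against Control TMX it was -0.08, beside 0.02 over all genes, with 3 higher and 6 lower, where 52.6% of all genes were higher. Both comparisons use the same Ehf IKO libraries.

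**Figure D1:**
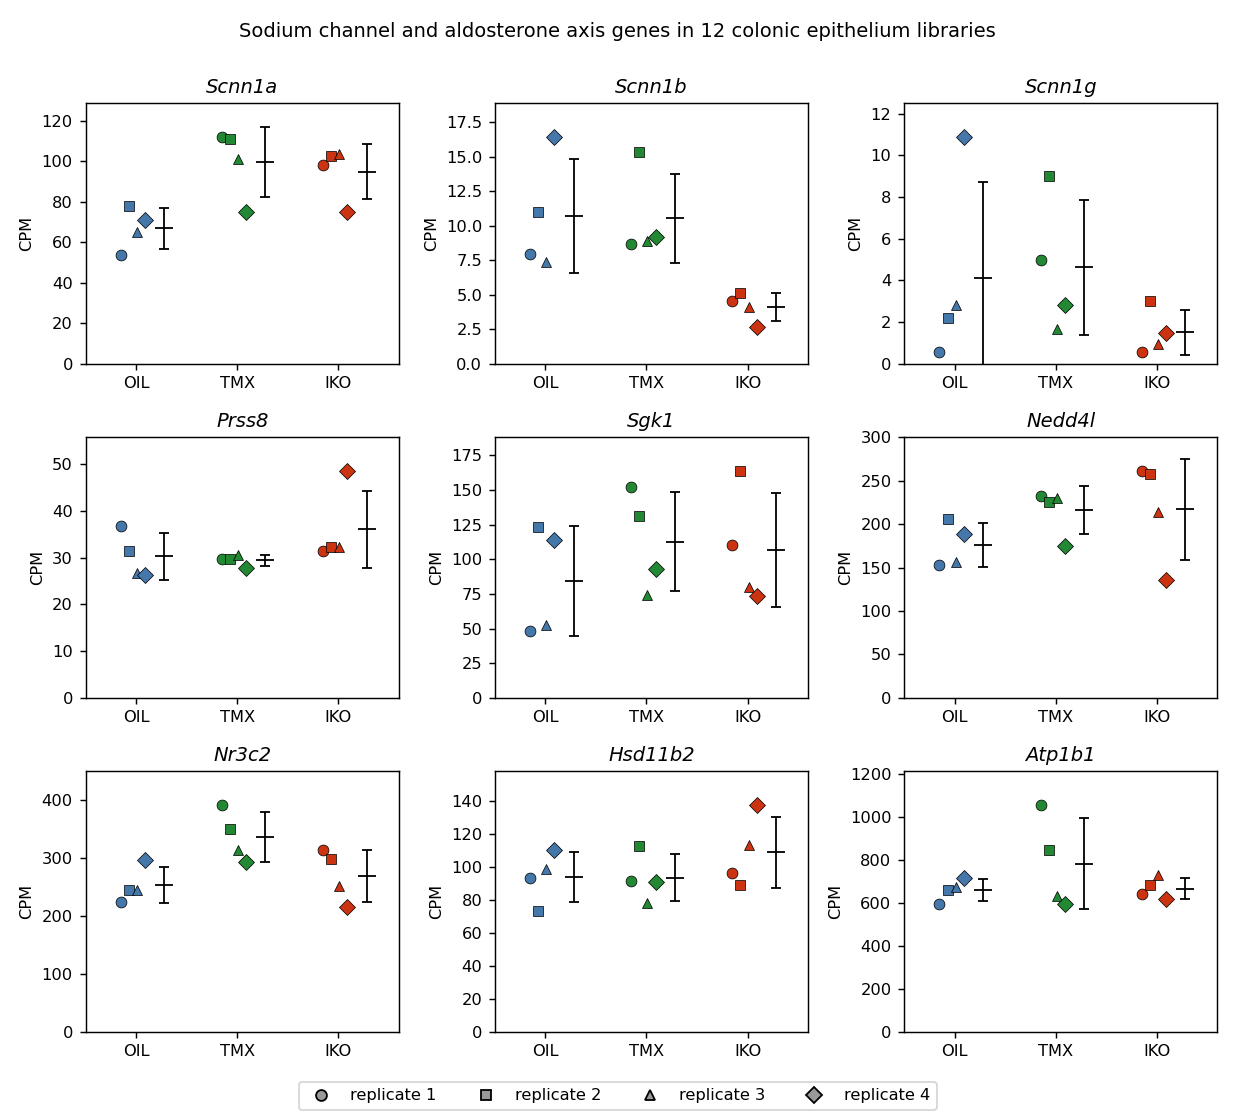
CPM of the 9 genes in each library (points) with the group mean and SD (bar), n = 4 mice per group, for Control OIL, Control TMX and Ehf IKO, each panel on its own linear axis from 0 (the lower SD bar of Scnn1g in Control OIL is cut at 0). The Ehf IKO points of Scnn1b, at 2.69 to 5.11 CPM, lie below all 8 control points.

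Per kilobase of exon, Atp1b1 was the highest of the 9 at a mean of 229 CPM per kb over the 12 libraries (193 to 343). The length is that of all annotated exon bases of a gene, which can exceed the length of its transcripts. The order holds on this scale and is not a measure of transcript numbers. Hsd11b2 followed at 53.8 (40.1 to 74.8) and Nr3c2 at 44.3 (33.2 to 60.5), whose ranges overlapped, with Hsd11b2 the higher in 10 of 12 libraries. Of Scnn1a at 21.1, Sgk1 at 20.7 and Prss8 at 17.2 CPM per kb, each was above the next in only 7 of 12 libraries. Scnn1a was above Prss8 in all libraries but Control OIL replicate 1 and Ehf IKO replicate 4. Nedd4l stood at 10.5 CPM per kb, from a mean of 203 CPM over 19400 annotated exon bases. The other channel subunits came last, Scnn1b at 3.20 (1.02 to 6.23) and Scnn1g at 1.14 (0.187 to 3.63), and in each of the 12 libraries Scnn1b was below Nedd4l and above Scnn1g. The same 2 genes varied most, since the highest library was 19.4 times the lowest for Scnn1g and 6.10 times for Scnn1b, against 1.78 times for Atp1b1 and 3.41 times for Sgk1.

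Scnn1b (ENSMUSG00000030873, GRCm38 chr7:121865038-121918514, plus strand), the gene of the beta subunit, was read at 7.96, 10.96, 7.39 and 16.4 CPM in Control OIL and at 8.70, 15.3, 8.90 and 9.16 CPM in Control TMX. In Ehf IKO it was read at 4.54, 5.11, 4.12 and 2.69 CPM, from 39, 37, 31 and 20 reads. All 4 Ehf IKO libraries were below all 8 control libraries, as was true of 1.23% of tested genes. Group means were 10.7 ± 4.12, 10.5 ± 3.21 and 4.11 ± 1.03 CPM in Control OIL, Control TMX and Ehf IKO. Scnn1b fell by 1.38 ± 0.29 (SE) on the log2 scale against Control OIL (95% interval -1.99 to -0.77, edgeR adjusted p = 0.0244). Against Control TMX it fell by 1.35 ± 0.29 (-1.96 to -0.74, adjusted p = 0.0391), and against the mean of both by 1.37 ± 0.26 (-1.92 to -0.81, adjusted p = 0.0141), to 0.388 of the control level. The controls themselves were close, with a log2 difference of -0.03 ± 0.26 between Control TMX and Control OIL (-0.59 to 0.52, adjusted p = 0.972). The direction held in every alternative fit. Against Control OIL the call was lost without Control OIL replicate 4 (adjusted p = 0.0682), Ehf IKO replicate 1 (0.0669) or Ehf IKO replicate 3 (0.0724) and in a fit of the compared groups alone (0.0545), and against the mean of both without Ehf IKO replicate 3 (0.0575). Against Control TMX it was lost in 8 of 12 fits that left out 1 library (Control TMX replicate 1, 2 or 3, Control OIL replicate 2, or any Ehf IKO library, with adjusted p of 0.069 without Ehf IKO replicate 2 and up to 0.152 without Control TMX replicate 2) and in limma-voom (0.0835).

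Scnn1b and Scnn1g are neighbours, with 96562 bases between them on chromosome 7, and share no exon bases with another gene. The 250 bases before their RefSeq starts are shown for the letters an ETS factor can bind, with each GGAA on the gene's strand in capitals (GRCm38.p6, plus strand, chr7:121864788-121865037 for Scnn1b and chr7:121734229-121734478 for Scnn1g).
Scnn1b: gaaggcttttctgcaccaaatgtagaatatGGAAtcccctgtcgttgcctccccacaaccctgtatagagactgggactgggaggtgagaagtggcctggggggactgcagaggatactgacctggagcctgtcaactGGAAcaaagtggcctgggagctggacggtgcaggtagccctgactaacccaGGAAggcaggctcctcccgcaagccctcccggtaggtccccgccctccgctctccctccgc
Scnn1g: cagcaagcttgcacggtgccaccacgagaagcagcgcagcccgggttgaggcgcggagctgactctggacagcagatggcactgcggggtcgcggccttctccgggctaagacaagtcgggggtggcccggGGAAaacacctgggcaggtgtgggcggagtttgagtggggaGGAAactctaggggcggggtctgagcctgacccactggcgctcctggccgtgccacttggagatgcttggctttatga
The Scnn1b window held 3 matches to GGAA on either strand, all on the gene's strand, the first and last at 220 and 61 bases before the start, the latter within the longer AGGAAG. The Scnn1g window held 2, at 119 and 78 bases, and no AGGAAG. Of all 32851 RefSeq windows of this length, 93.4% held GGAA on either strand, with a median of 3 matches, and 29.5% held AGGAAG. The related CGGAAG, in 13.6% of windows, was in neither. Binding was not measured here. RefSeq windows of 5 of the 9 genes were searched, and those of Nr3c2 and Atp1b1 held 3 and 0 matches to GGAA and no AGGAAG. The windows of Sgk1, which was not called, held 6, 1, 4, 3, 7 and 2 matches to GGAA in order along the chromosome. They held 2, 1, 0, 1, 2 and 1 matches to AGGAAG, and the last held CGGAAG.

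Scnn1a (ENSMUSG00000030340, chr6:125320659-125344943, plus strand), the gene of the alpha subunit, was read at 53.5, 77.9, 65.2 and 70.9 CPM in Control OIL, at 111.8, 111.2, 101 and 75.0 in Control TMX and at 98.2, 103, 104 and 75.1 in Ehf IKO. Both tamoxifen-treated groups ran higher than the oil group, with 1 library of each inside the oil range. Means were 66.9 ± 10.3, 99.8 ± 17.3 and 94.9 ± 13.4 CPM. Ehf IKO was higher than Control OIL by 0.50 ± 0.15 on the log2 scale (0.19 to 0.82) without passing (edgeR adjusted p = 0.111). It was called by DESeq2 (adjusted p = 0.0494), with no filter (0.0139) and without Ehf IKO replicate 4 (0.0256). Against Control TMX the difference was -0.07 (-0.38 to 0.24, adjusted p = 0.899), an interval that does not reach the fall of Scnn1b.

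Alpha subunit transcripts were more numerous, relative to those of the beta subunit, in every Ehf IKO library than in any control. Per length of annotated exon, and with a pseudocount of 0.1 CPM, the ratio of Scnn1a to Scnn1b was 4.24, 4.50, 5.56 and 2.74 in Control OIL. It was 8.11, 4.60, 7.18 and 5.17 in Control TMX. Ehf IKO had 13.5, 12.6, 15.6 and 17.2, and its lowest library was above the highest control library. The mean log2 ratio was 3.87 ± 0.20 in Ehf IKO, 2.05 ± 0.43 in Control OIL and 2.61 ± 0.39 in Control TMX. The ratio was 3.54-fold that of Control OIL and 2.40-fold that of Control TMX, each with a two-sided exact permutation p of 0.0286, the smallest that 4 against 4 libraries can give. Over the 9 ratio tests the Benjamini-Hochberg value was 0.129, which does not pass. A ratio at the smallest p could pass only if most of the 9 tests stood at it too. The ratio holds the same Scnn1b values as the test above. The ratio of Scnn1a to Scnn1g in Ehf IKO was 2.74-fold that of Control OIL (exact permutation p = 0.171) and 2.76-fold that of Control TMX (p = 0.0857), with ranges that overlapped. The ratio of Scnn1b to Scnn1g ran from 1.89 to 7.73 in Ehf IKO, inside the 1.71 to 13.9 of Control OIL (exact permutation p = 0.657).

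**Figure D2:**
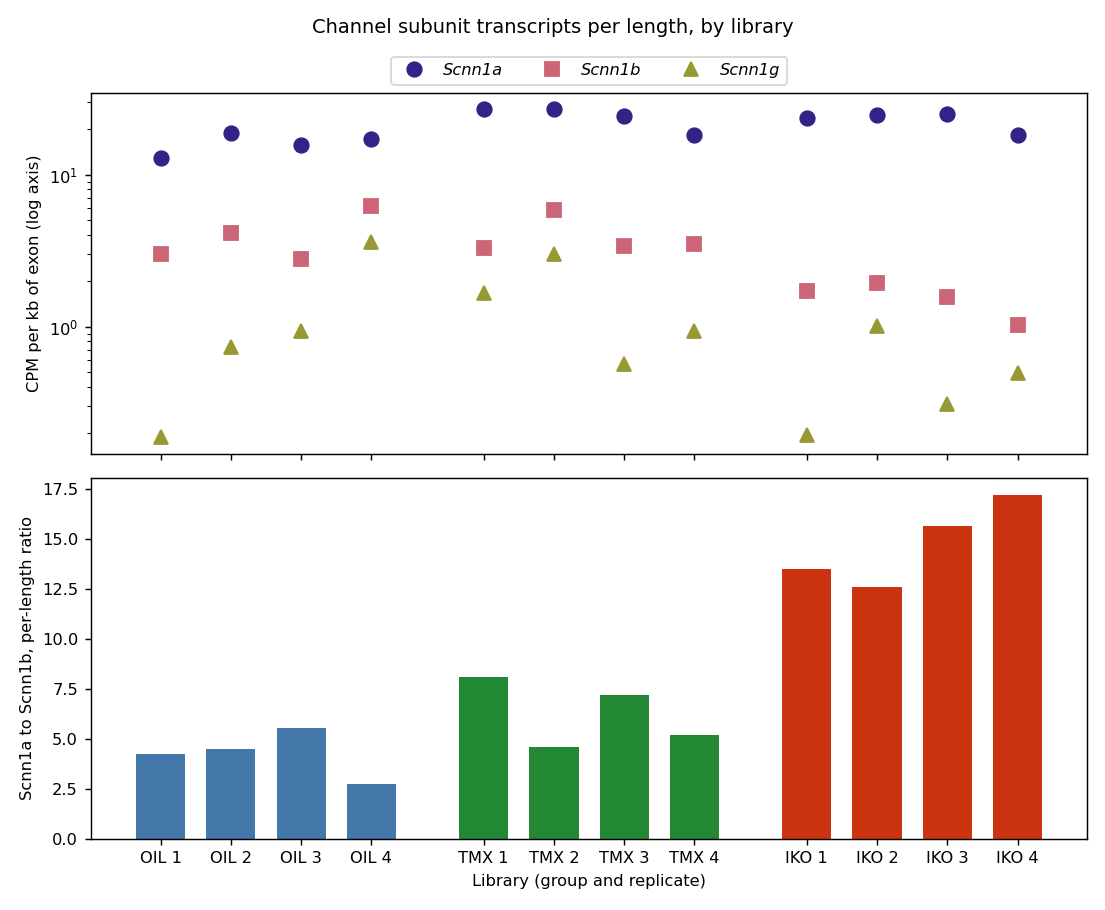
Upper panel, CPM per kb of exon (log axis) of the 3 subunit genes in each library; lower panel, the per-length ratio of Scnn1a to Scnn1b in the same libraries, bars from 0 coloured by group. The ratio was at most 8.11 in the control libraries and at least 12.6 in Ehf IKO.

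Scnn1g (ENSMUSG00000000216, chr7:121734479-121768475, plus strand), the gene of the gamma subunit, was read at 0.559, 2.21, 2.80 and 10.9 CPM in Control OIL, at 4.97, 9.02, 1.69 and 2.80 in Control TMX and at 0.582, 3.04, 0.931 and 1.48 in Ehf IKO. These values rest on 4 to 110 reads, and the groups overlapped, the lowest of all 12 libraries being a control. Its estimated fold change was as large as that of Scnn1b but far less precise. The log2 difference was -1.52 ± 0.82 against Control OIL (-3.30 to 0.27, edgeR adjusted p = 0.529) and -1.61 ± 0.82 against Control TMX (-3.40 to 0.18, adjusted p = 0.482). The first of these was -0.35 without Control OIL replicate 4, and the second -1.04 without Control TMX replicate 2. Without Ehf IKO replicate 2 they were -2.10 and -2.19. A change of the size of that in Scnn1b was not detectable for Scnn1g at this depth and spread.

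Prss8 (ENSMUSG00000030800, chr7:127925716-127930104, minus strand) encodes prostasin, a membrane-anchored serine protease that activates the channel. It was read at 36.9, 31.4, 26.6 and 26.3 CPM in Control OIL, at 29.7, 29.8, 30.5 and 27.8 in Control TMX and at 31.3, 32.3, 32.2 and 48.5 in Ehf IKO. Every Ehf IKO library was above every Control TMX library, as was true of 3.32% of tested genes, but the range of Control OIL overlapped it. The log2 difference was 0.29 ± 0.15 against Control TMX (-0.02 to 0.61, edgeR adjusted p = 0.462) and 0.25 ± 0.15 against Control OIL (adjusted p = 0.562). Without Ehf IKO replicate 4, the highest library, it was 0.12 and 0.08. Of the exon bases of Prss8, 6.59% are shared with Kat8 on the other strand, where reads were left uncounted.

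Sgk1 (ENSMUSG00000019970, chr10:21882184-21999903, plus strand), the kinase gene, was read at 47.9, 124, 52.9 and 114 CPM in Control OIL, at 152, 132, 74.3 and 92.8 in Control TMX and at 110, 163, 79.7 and 73.6 in Ehf IKO. Libraries within each group differed by more than the group means, which were 84.6 ± 39.7, 112.7 ± 35.5 and 106.7 ± 41.0 CPM. Ehf IKO differed from Control OIL by 0.33 ± 0.37 on the log2 scale (-0.48 to 1.14, edgeR adjusted p = 0.834) and from Control TMX by -0.08 (-0.88 to 0.73, adjusted p = 0.962). Without Ehf IKO replicate 2, the highest of the 12 libraries, these were 0.051 and -0.35. A moderate change of Sgk1 was not detectable against this spread. Sgk1 is a textbook target of the steroid receptors, and of its 6 RefSeq start windows the one before base 21993890 of chromosome 10 held AGAACA 3 times. These AGAACA matches, counted on either strand, include the arms of the palindromic steroid receptor motif AGNACANNNTGTNCT. This motif lay 189 bases before that start and is shown in capitals (GRCm38.p6, chr10:21993686-21993730, plus strand).
Sgk1: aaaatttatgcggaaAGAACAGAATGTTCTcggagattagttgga
The palindrome, searched on both strands, was in 0.0609% of the 32851 windows, and AGAACA, which it can contain, was in 16.1%. The windows of Scnn1b, Scnn1g, Nr3c2 and Atp1b1 held neither.

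Nedd4l (ENSMUSG00000024589, on chromosome 18), the gene of the ligase that removes the channel from the membrane, was read at 152.9, 206, 156 and 189 CPM in Control OIL, at 233, 226, 231 and 175 in Control TMX and at 261, 258, 214 and 136 in Ehf IKO. Ehf IKO replicates 1 to 3 exceeded the oil range and replicate 4 was the lowest of all 12. The log2 difference was 0.30 ± 0.18 against Control OIL (-0.07 to 0.68, edgeR adjusted p = 0.563), 0.47 without Ehf IKO replicate 4 (adjusted p = 0.0552), and 0.01 against Control TMX (-0.37 to 0.39, adjusted p = 0.99).

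EdgeR called neither the receptor gene nor the steroid enzyme gene in a comparison of Ehf IKO. Nr3c2 (ENSMUSG00000031618, chr8:76899442-77245012, plus strand), the gene of the mineralocorticoid receptor, was read at 225, 245, 245 and 298 CPM in Control OIL, at 391, 350.0, 313 and 293 in Control TMX and at 313, 299, 252 and 215 in Ehf IKO. Control TMX was the highest group at 337 ± 43.3 CPM, against 253 ± 31.1 in Control OIL and 270 ± 45.0 in Ehf IKO, and the ranges overlapped. Of its exon bases, 3.82% are shared with Gm10649. Ehf IKO differed from Control OIL by 0.09 (-0.19 to 0.38, edgeR adjusted p = 0.886) and from Control TMX by -0.32 ± 0.13 (-0.61 to -0.03, adjusted p = 0.363). Hsd11b2 (ENSMUSG00000031891, chr8:105518755-105523988, plus strand) encodes the dehydrogenase that inactivates glucocorticoids and so leaves the receptor to aldosterone. It was read at 93.8, 73.7, 99.0 and 110 CPM in Control OIL, at 91.8, 112.8, 78.3 and 91.2 in Control TMX and at 96.6, 89.0, 114 and 137.7 in Ehf IKO. Ehf IKO replicates 3 and 4 were above all 8 control libraries and replicates 1 and 2 within their range. The log2 difference was 0.21 ± 0.15 against Control OIL (-0.11 to 0.54, adjusted p = 0.669) and 0.22 against Control TMX (-0.10 to 0.55, adjusted p = 0.611), and 0.08 and 0.09 without Ehf IKO replicate 4.

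Atp1b1 (ENSMUSG00000026576, chr1:164437109-164458355, minus strand), the gene of the beta subunit of the sodium pump, was read at 595, 663, 677 and 717 CPM in Control OIL and at 640.5, 682, 730.0 and 618 in Ehf IKO, ranges that overlapped. Control TMX had 1056, 847, 635 and 596 CPM, and its first 2 libraries were the highest of the 12. The log2 difference was 0.01 ± 0.15 against Control OIL (-0.32 to 0.34, edgeR adjusted p = 0.989) and -0.23 ± 0.15 against Control TMX (-0.56 to 0.10, adjusted p = 0.604), the latter -0.05 without Control TMX replicate 1. Of its exon bases, 18.7% are shared with Nme7 on the other strand, where reads were left uncounted.

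**Figure D3:**
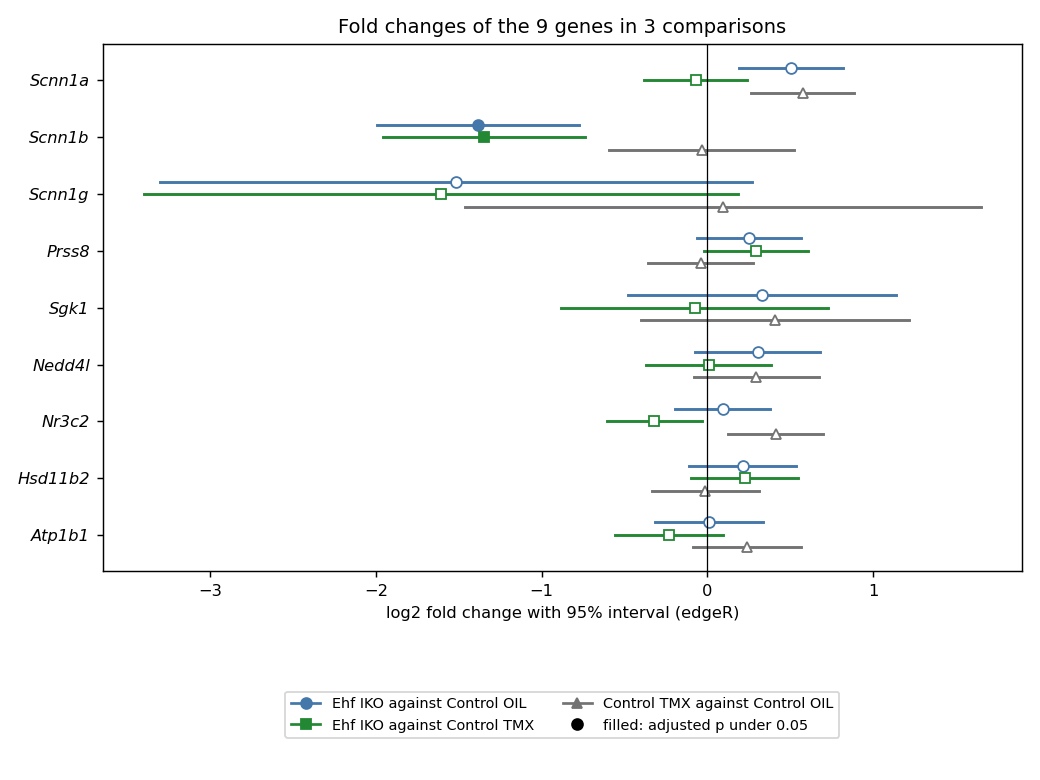
Log2 fold changes (points) with 95% intervals (lines) from edgeR for the 9 genes in 3 comparisons, n = 4 mice per group; filled points were called. The intervals of Scnn1b, -1.99 to -0.77 against Control OIL and -1.96 to -0.74 against Control TMX, exclude 0, and those of Scnn1g are the widest. Intervals are not adjusted for the number of genes, so some that exclude 0, such as those of Scnn1a against Control OIL and Nr3c2 against Control TMX, belong to genes that were not called.

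Between the control groups, which differ in line and in agent, edgeR called 0 of the 9 genes, where it called 0.0826% of all tested genes. At an unadjusted p under 0.05 there were 2, Scnn1a and Nr3c2, and the share of all tested genes under that threshold was not counted. Scnn1a was higher in Control TMX by 0.57 ± 0.15 on the log2 scale (0.26 to 0.89, adjusted p = 0.157) and Nr3c2 by 0.41 ± 0.14 (0.13 to 0.70, adjusted p = 0.258). DESeq2 called 1 of the 9, Scnn1a (adjusted p = 0.0278), and limma-voom 0. Without Control TMX replicate 4, edgeR called Scnn1a too (adjusted p = 0.0472).

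Sex, with group as a term, gave 0 called genes of the 9 in edgeR, beside 0.0699% of all tested genes, and 0 at an unadjusted p under 0.05, while limma-voom gave 0 called and 1 at an unadjusted p under 0.05. The largest estimates in edgeR were for Sgk1, at -0.55 ± 0.26 in males minus females (adjusted p = 0.778), and Nedd4l, at -0.27 ± 0.13 (adjusted p = 0.778). The knockout effect against the mean of both controls was also compared between the sexes in edgeR. At an adjusted p under 0.05 it differed for none of the 9 genes, as for 0% of all tested genes. The share of all tested genes with an unadjusted p under 0.05 was counted neither for sex nor for this difference. In the latter, 3 of the 9 genes had such a p. These were Prss8 (0.54 ± 0.21 larger in males, adjusted p = 0.246), Hsd11b2 (0.41 ± 0.19, adjusted p = 0.302) and Nr3c2 (-0.35 ± 0.16, adjusted p = 0.316). With 2 mice per sex and group, Prss8 turned on single libraries, from 0.22 without Ehf IKO replicate 4 (adjusted p = 0.758) to 0.81 without Ehf IKO replicate 3, where it was called (adjusted p = 0.0362). For Scnn1b the difference was -0.45 ± 0.50 (adjusted p = 0.68), and Ehf IKO was below the controls in both sexes.

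Around the 9 genes, 6 lists of other genes of the pathway were set against the mean of both controls. Of 5 tested genes of the sodium pump and its regulators, 4 were higher and 1 lower, with a median log2 fold change of 0.14, and 0 passed in edgeR. Of 9 channel-processing proteases and their inhibitors, 2 were higher and 7 lower (median -0.05), and 0 passed in edgeR. Of 23 ligases, kinases and adaptors that act on the channel, 14 were higher and 9 lower (median 0.01), and 0 passed in edgeR. DESeq2 and limma-voom also called 0 genes of these 3 lists. At an unadjusted p under 0.05 in edgeR there were 0, 0 and 2, and 4, 5 and 5 in the 3 lists below. The share of all tested genes under that threshold was not counted. The median over all tested genes was 0.01, with 51.9% of them higher and 1.72% called. The genes with the smallest p in these lists were the pump regulator gene Fxyd3 (-0.24, edgeR adjusted p = 0.679), the protease gene Furin (-0.15), the ubiquitin ligase adaptor gene Klhl3 (0.63, adjusted p = 0.169) and the deubiquitinase gene Usp2 (-0.77, adjusted p = 0.353).

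Of 17 tested genes of steroid receptors, steroid metabolism and steroid response, 9 were higher and 8 lower (median 0.01). In edgeR 1 rose, where 1.72% of all tested genes were called in either direction. It was Errfi1, whose product restrains the EGF receptor, at 62.7, 78.7, 53.4 and 70.8 CPM in Control OIL, 100.2, 86.3, 89.4 and 85.5 in Control TMX and 158, 143, 108.6 and 77.4 in Ehf IKO. Ehf IKO replicate 4 lay within the oil range. Errfi1 rose by 0.65 ± 0.15 on the log2 scale against the controls' mean (edgeR adjusted p = 0.0451) and by 0.87 ± 0.18 against Control OIL (adjusted p = 0.0248), but its 0.43 against Control TMX did not pass (adjusted p = 0.359). The call against the mean was lost in 10 of 12 fits without 1 library, with adjusted p up to 0.192 (0.176 without Ehf IKO replicate 2), and that against Control OIL in 6 of 12, up to 0.0806 without Ehf IKO replicate 2. The steroid-response gene Tsc22d3 differed by 0.35 (adjusted p = 0.21) and the endothelin gene Edn1 by 0.87 ± 0.22 (adjusted p = 0.0709). DESeq2 called Edn1 against the mean (adjusted p = 0.0149) and against Control OIL (0.0184), as edgeR did with no filter on low counts (2.57e-06 and 8.98e-06).

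Among 11 tested genes of other apical sodium entry, 4 were higher and 7 lower (median -0.12). In edgeR 1 fell, where 0.858% of all tested genes were called as lower. Slc9a3r2, which encodes a scaffold protein of the apical sodium-proton exchanger, was read at 10.1, 9.63, 5.86 and 4.54 CPM in Control OIL, 7.77, 9.76, 8.90 and 8.13 in Control TMX and 3.26, 3.17, 4.39 and 4.30 in Ehf IKO. The Ehf IKO libraries were below all 8 controls, as was true of 1.23% of tested genes, by a narrow margin from Control OIL replicate 4. It fell by 1.09 ± 0.22 against the controls' mean (edgeR adjusted p = 0.0199) and by 1.19 ± 0.25 against Control TMX (adjusted p = 0.0355), while -0.98 ± 0.25 against Control OIL did not pass (adjusted p = 0.061). The last was called by DESeq2 (adjusted p = 0.0254), by edgeR with no filter (0.00256), and by edgeR when replicate 4 of Control OIL (0.0236) or of Ehf IKO (0.0403) was left out. The call against the mean was lost without Ehf IKO replicate 1 (adjusted p = 0.0876), 2 (0.086) or 3 (0.0564), and that against Control TMX in 7 of 12 such fits, up to 0.138.

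Of 9 tested genes of colonic potassium transport, 2 were higher and 7 lower (median -0.15). Against the mean of both controls 1 fell, where 0.858% of all tested genes were called as lower. This was the potassium channel gene Kcnk6, at 62.3, 57.9, 42.4 and 48.4 CPM in Control OIL, 39.8, 48.0, 55.5 and 52.9 in Control TMX and 41.5, 36.2, 32.7 and 27.0 in Ehf IKO, a fall of 0.57 ± 0.13 (edgeR adjusted p = 0.0442). Its highest Ehf IKO library overlapped the range of Control TMX, and the call was lost in 9 of 12 fits without 1 library, up to an adjusted p of 0.151 (0.107 without Ehf IKO replicate 2). Against Control OIL alone, Kcnk6 was called by DESeq2 (adjusted p = 0.0117) and not by edgeR. Kcne3, the gene of a potassium channel regulatory subunit of the basolateral membrane, fell by 0.64 ± 0.15 against Control OIL alone (adjusted p = 0.0455), from 87.7 to 56.2 CPM on average, and differed by -0.33 against Control TMX (adjusted p = 0.409). That call was lost in 8 of 12 such fits, up to 0.152 (0.146 without Ehf IKO replicate 2).

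**Figure D4:**
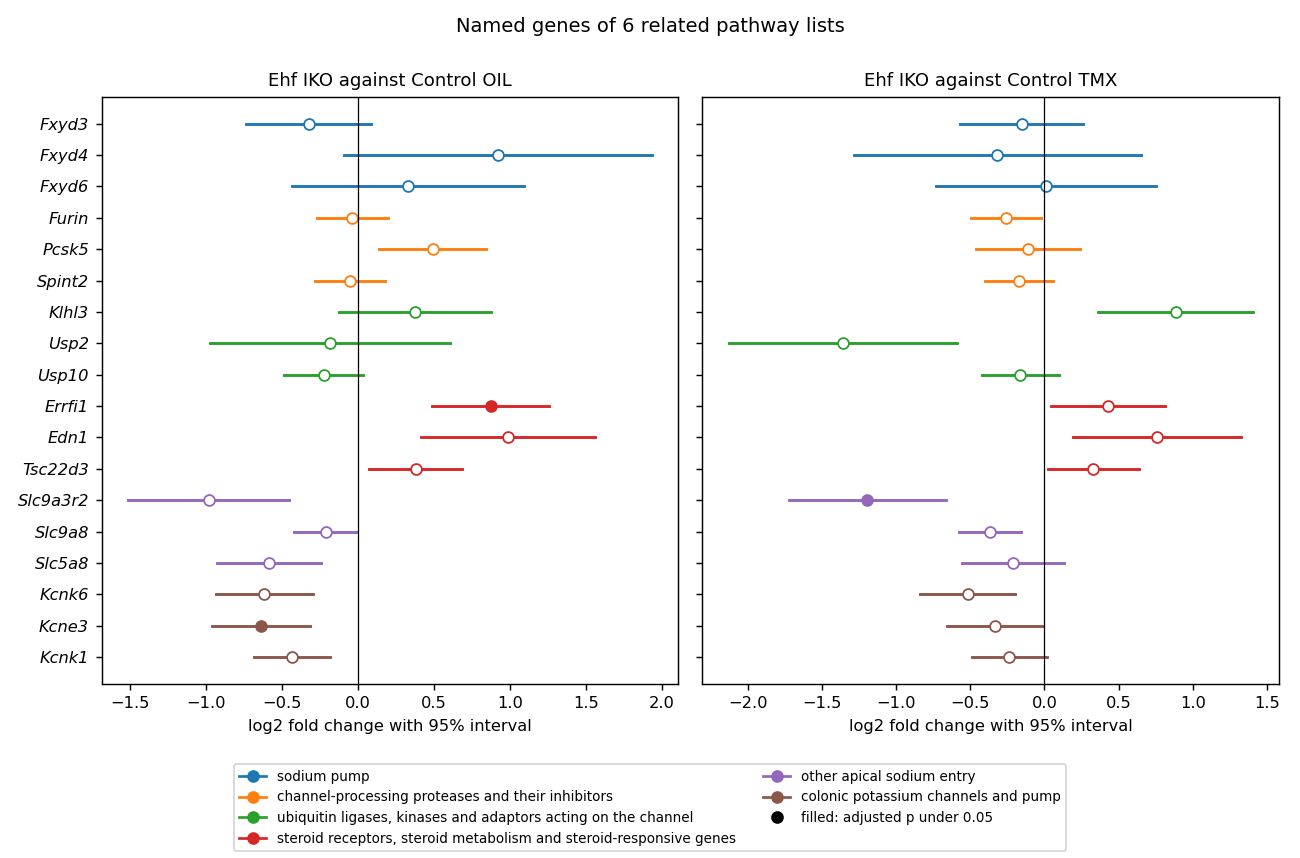
Log2 fold changes of the named genes of the 6 pathway lists against Control OIL and against Control TMX, with 95% intervals from edgeR, n = 4 mice per group; filled points were called. The called genes were Errfi1 and Kcne3 against Control OIL and Slc9a3r2 against Control TMX.

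Markers of other cell types and of colon regions moved with some of these groups. The 6 fibroblast markers were all higher in Ehf IKO than in Control OIL, 2 of them called (Col1a2 by 1.10 and Col3a1 by 1.05 on the log2 scale, where 48.7% of all genes were higher and 1.68% called), and their summed level was 264 to 374 CPM in Control OIL, against 388 to 667 in Control TMX and 368 to 919 in Ehf IKO. Of 10 surface colonocyte markers, 9 were higher in Ehf IKO than in Control OIL and 1, Krt20, rose (0.71, edgeR adjusted p = 0.0438), with sums of 2239 to 4946, 4813 to 5983 and 3793 to 7383 CPM. Control OIL had the lowest median sum in both lists, and also in those of epithelium, smooth muscle, endothelium and proximal colon. Among the 9 genes it had the lowest mean of Scnn1a, Sgk1, Nedd4l, Nr3c2 and Atp1b1. Against Control TMX, the 6 fibroblast markers were higher in Ehf IKO with a median of 0.34 on the log2 scale, and 7 of the 10 surface markers were higher with a median of 0.22, where 52.6% of all genes were higher, and edgeR called none of them. Smooth muscle markers summed to 13.8 to 37.6 CPM in Control OIL, 36.2 to 84.5 in Control TMX and 18.8 to 70.8 in Ehf IKO. In that order, endothelial markers summed to 2.80 to 3.65, 3.83 to 7.77 and 4.52 to 11.6 CPM. Immune markers summed to 21.5 to 36.2, 18.9 to 28.4 and 28.3 to 47.2 CPM. Against Control OIL, median log2 fold changes of smooth muscle and endothelial markers were 0.72 and 1.23 in Ehf IKO and 1.25 and 1.07 in Control TMX. In each, 1 smooth muscle marker was lower. Nerve and glia markers summed to 1.88 to 4.14 CPM, and no marker of these lists was called. Every marker but Cd79a, Cdh5 and Elavl4, which were read in 9, 8 and 10 libraries, was read in all 12 (Prac1 was not analysed here). The 6 posterior Hox genes, of the distal colon where the channel is known to be most active, summed to 149 to 238 CPM in Control OIL, against 125 to 165 in Control TMX and 121 to 212 in Ehf IKO, with none called. The highest sum was in Control OIL replicate 3. All 6 were lower than in Control OIL in Ehf IKO (median -0.11) and in Control TMX (median -0.305), where 48.7% and 48.5% of all genes were higher. Against Control TMX, 4 were higher and 2 lower in Ehf IKO. Cyp2c55, of the proximal colon, was at 56.8 and 118 CPM in Control OIL replicates 3 and 4 and at 448 to 1303 CPM in the other 10 libraries. Osr2, the other proximal gene, did not share this pattern, at 26.8 to 37.6 CPM in Control OIL (26.8 and 32.7 in replicates 3 and 4), against 35.6 to 52.0 in Control TMX and 16.4 to 37.3 in Ehf IKO. It differed by -0.24 against Control OIL (edgeR adjusted p = 0.757) and by -0.70 against Control TMX (adjusted p = 0.18). The part of these markers in the results on the 9 genes was not tested.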

How the data were processed

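The authors made the deposited files, counts of reads for each gene symbol, with featureCounts 1.6.1 over the exons of Ensembl GRCm38 release 98 and with strand ignored, per the file headers. Reads in several genes were left out. STAR is named in the submitters' processing notes, with no version.

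From these counts, edgeR 4.0.16 (R 4.3.3) was run with TMM scaling and filterByExpr. The 12 libraries entered 1 quasi-likelihood fit (legacy and robust settings, 9 residual degrees of freedom), from which the contrasts between groups were taken. P-values were adjusted by Benjamini-Hochberg over all 15743 genes tested, and an adjusted p under 0.05 was called. Mouse sex came from Xist and Y-linked genes. The biological coefficient of variation was 18.3%. No library pair was identical. Subunit ratios used a pseudocount of 0.1 CPM and an exact permutation test (scipy 1.17.1). The edgeR script was tested on simulated data. Alternatives were DESeq2 1.42.0, limma-voom (limma 3.58.1), other filters and scaling, compared groups alone, a replicate block, sex as a covariate and leaving out each library.

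The 9 genes, the pathway lists and the marker lists were chosen from general knowledge with earlier results of these data known. Beyond the 9 genes and Ehf, the pathway genes named are those called by edgeR in a comparison of Ehf IKO and up to 3 per list with the smallest p. Per1 and Slc9a3, under other observations, were picked after their values were seen. The markers named come from the marker lists. Of the pathway lists, 1 gene is not reported here. Promoter windows come from RefSeq (GRCm38.p6), gene positions from the count files, and exon overlaps from their exon annotation.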

Additional observations from a re-analysis of the deposited data

Results flagged for a closer look

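Within groups of 4 libraries, 27 sets of values (9 genes in 3 groups) were examined for a library far from the other 3, by the ratio of its gap to the whole range (Dixon's test at the 95% level). Chance flags about 1 in 20 such sets, and 3 exceeded it. Scnn1b was highest in Control TMX replicate 2, at 15.3 CPM against 8.70 to 9.16 in the rest of that group. Prss8 was highest in Ehf IKO replicate 4, at 48.5 CPM against 31.3 to 32.3. Nedd4l was lowest in Control TMX replicate 4, at 175 CPM against 226 to 233. The cause of these values was not tested.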

How the results depend on the processing

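Scnn1b kept its direction in all alternatives of each comparison of Ehf IKO, at -1.52 to -1.09 on the log2 scale against Control OIL, -1.46 to -1.11 against Control TMX and -1.48 to -1.21 against the mean of both, and it was called in 16 of 20, 10 of 20 and 18 of 19 of them. Of the 9 genes, the number called against Control OIL was 2 with no filter, 2 with DESeq2 and 0 in a fit of the compared groups alone (0 to 2 without 1 library). Against Control TMX it was 0 with limma-voom and 0 with the replicate block (0 to 1 without 1 library), and against the mean of both 0 to 1 without 1 library. Between the controls it was 2 with no filter and 1 with DESeq2 (0 to 1 without 1 library), for the sex difference in the knockout effect 0 to 1, and for sex 0 throughout. Over all genes, the calls against Control OIL, Control TMX, the mean of both and between the controls were 265, 126, 270 and 13. They were 724, 500, 831 and 441 with no filter, 491, 281, 441 and 186 with DESeq2, and 104 to 711, 50 to 162, 108 to 522 and 3 to 67 without 1 library. The 711 against Control OIL, the 522 against the mean of both and the 67 between the controls were the calls without Ehf IKO replicate 4. Between the controls they were 8 with limma-voom, 5 at a mean log2 CPM of at least 1 and 38 with sex as a covariate, and against Control OIL about 1.1e2 in the compared groups alone. The cause of these shifts was not tested.

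Same-numbered libraries of different groups deviated together, at a correlation over 0.1, in 5 of 12 pairs (correlations of -0.41 to 0.41). Differently numbered libraries had correlations of -0.35 to 0.37. These values do not settle whether replicate numbers pair the samples, and mice were numbered separately in the labels. With the replicate block, 173, 72 and 148 genes were called against Control OIL, Control TMX and the mean of both, and Scnn1b was not called against Control TMX (adjusted p = 0.0706). The block also ended the calls of Errfi1 (0.0699), Slc9a3r2 (0.0626) and Kcnk6 (0.0956) against the mean of both and of Slc9a3r2 against Control TMX (0.0859). With limma-voom the calls of Errfi1 (0.0835), Slc9a3r2 (0.0505) and Kcnk6 (0.056) against the mean of both, of Slc9a3r2 against Control TMX (0.0594) and of Kcne3 against Control OIL (0.0547) were lost, and in the compared groups alone those of Errfi1 (0.0913) and Kcne3 (0.0727) against Control OIL. At a mean log2 CPM of at least 1, that of Errfi1 against the mean of both was lost (0.0517). Other settings added calls of pathway genes, of which those of the named genes are given. DESeq2 called Edn1 (0.0184), Slc9a3r2 (0.0254), Slc5a8 (0.0364), Kcnk6 (0.0117) and Kcnk1 (0.0471) against Control OIL, Usp2 (0.00926) and Slc9a8 (0.023) against Control TMX, and Edn1 (0.0149) and Slc9a8 (0.0381) against the mean of both. With no filter, edgeR called Pcsk5 (0.0183), Edn1 (8.98e-06), Slc9a3r2 (0.00256), Slc5a8 (0.00015) and Kcnk6 (0.000375) against Control OIL, Usp2 (0.000212), Edn1 (0.00454) and Kcnk6 (0.00626) against Control TMX, and Usp2 (0.0355), Edn1 (2.57e-06), Slc5a8 (0.00688) and Kcne3 (0.000672) against the mean of both. With sex as a covariate it called Kcnk6 against Control OIL (0.0435). Between the controls, Pcsk5 (0.0447) and Usp2 (0.0464) were called by DESeq2 and Pcsk5 (0.000249), Usp2 (0.00272) and Errfi1 (0.0321) with no filter.

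Differences near 0 changed sign. With no filter, Atp1b1 was at -0.019 against Control OIL, Nedd4l at -0.039 and Fxyd6 at -0.026 against Control TMX and Hsd11b2 at 0.0031 between the controls. Nedd4l against Control TMX was -0.027 with limma-voom, -0.0026 in the compared groups alone, -0.013 with the replicate block and -0.0091 with sex as a covariate. Hsd11b2 between the controls was 0.0051 with the block and 0.0041 with sex. Fxyd6 against Control TMX was -0.021 with the replicate block. With limma-voom, Fxyd4 was at 0.081 and Fxyd6 at -0.089 against Control TMX and Scnn1g at -0.0063 between the sexes. At a pseudocount of 0.5 CPM the log2 ratio of Scnn1a to Scnn1g differed by 0.12 between the controls. Without 1 library, ranges that crossed 0 were, against Control OIL, -0.041 to 0.052 for Atp1b1 and -0.11 to 0.49 for Fxyd6. Against Control TMX they were -0.35 to 0.10 for Sgk1, -0.60 to 0.069 for Fxyd4, -0.42 to 0.18 for Fxyd6, -0.091 to 0.18 for Nedd4l, -0.19 to 0.025 for Scnn1a and -0.23 to 0.054 for Pcsk5. Against the mean of both they were -0.15 to 0.27 for Sgk1 and -0.27 to 0.33 for Fxyd6. Between the controls they were -0.27 to 0.25 for Scnn1b, -0.045 to 0.18 for Tsc22d3, -0.47 to 1.25 for Scnn1g, -0.12 to 0.069 for Hsd11b2 and -0.11 to 0.064 for Prss8. Between the sexes they were -0.42 to 0.0082 for Scnn1b, -0.14 to 0.057 for Prss8 and -0.71 to 0.42 for Scnn1g. For the sex difference in the knockout effect they were -0.27 to 0.20 for Scnn1a and -1.63 to 0.72 for Scnn1g. No result that changed sign was called in the fit where it did so. Leaving out 1 library of a ratio gives 3 against 4, where an exact test cannot pass, so those are values with no test. Depth limits Scnn1g most, at 4 to 110 reads per library.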

Other observations

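These values were singled out after they were seen and belong to no comparison above. Within Control TMX, replicates 1 and 2, the females, had the higher values of several genes of sodium transport and of the clock and steroid response. Per1, a clock gene that steroid hormones induce, was at 105, 93.4, 29.0 and 17.5 CPM in replicates 1 to 4. The deubiquitinase gene Usp2 was at 44.1, 23.6, 14.3 and 11.3 CPM. Fxyd4, whose product regulates the sodium pump, was at 31.1, 33.6, 8.05 and 7.48 CPM. Slc9a3, the gene of an apical sodium-proton exchanger, was at 615, 619, 432 and 384 CPM. Among the 9 genes, Scnn1a, Sgk1, Atp1b1, Nr3c2, Hsd11b2 and Scnn1g had their highest pair of Control TMX values in the same libraries. For Hsd11b2 the margin was narrow, at 91.8 CPM in replicate 1 against 91.2 in replicate 4. The share of all tested genes with this pattern was not counted.

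Single libraries also stood at the ends of the order of all 12 for several of the 9 genes. Ehf IKO replicate 4 was the lowest for Scnn1b, Nedd4l and Nr3c2 and the highest for Prss8 and Hsd11b2. Control OIL replicate 4 was the highest for Scnn1b and Scnn1g, and Control OIL replicate 1 was the lowest for Scnn1a, Scnn1g, Sgk1 and Atp1b1.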
